A study of Mus musculus with 27 samples.

Results

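The Cxcr3 and Cxcr6 chemokine axes comprise the receptors Cxcr3 and Cxcr6 and their ligands, Cxcl9, Cxcl10 and Cxcl11 for Cxcr3 and Cxcl16 for Cxcr6. The 6 genes were taken by symbol from the table of linear RNA in whole mouse lung, where 5 were found among 21742 gene symbols, and Cxcl11 is not analysed here. All 5 passed the filter on low values, and none has a row in the table of circular RNA, which lists 4416 gene symbols.

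Each of 27 ribosome-depleted libraries held RNA from a left lung lobe, taken from BALB/c AnNHsd mice that were 87 days old. The Dex_CDGHDM group held 6 mice that were sensitized and then injected intraperitoneally, at 3 mg/kg each time, with dexamethasone, a glucocorticoid. The protocol ran for 35 days, with an injection on day 11, another on day 18 and the last on day 25. The AM155 group held 6 mice that received antimiR-155, an oligonucleotide that blocks the microRNA miR-155. It was packed in lipid nanoparticles and injected into a vein at 2 mg/kg on those same days. Its labels do not say in words that these mice were sensitized. The CDG_HDM group held 10 mice whose lungs were sensitized with house dust mite extract and cyclic di-GMP, a bacterial second messenger used as an adjuvant, as a model of severe asthma. The Saline group held 5 unsensitized mice. No group received empty nanoparticles or a vehicle, so drug and carrier cannot be told apart. The design asks how sensitization alters lung RNA and whether either treatment alters it further.

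Chemokines are small secreted proteins that steer leukocytes through receptors coupled to inhibitory G proteins. Cxcl9, Cxcl10 and Cxcl11 are made by macrophages, dendritic cells, endothelium and epithelium exposed to interferon gamma, and they draw in activated T cells and NK cells that carry Cxcr3. Cxcl16 is made as a membrane protein that can hold Cxcr6-bearing cells in place and is released as a soluble chemokine when a metalloprotease cuts its stalk. In the lung, Cxcr6 is known as a receptor of tissue-resident memory T cells.

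On the GRCm38 build, with GENCODE annotation, Cxcl9 lies at chr5:92321347-92328079 and Cxcl10 at chr5:92346638-92348889, both on the minus strand and next to Cxcl11 at chr5:92359544-92365485. Cxcr3 lies at chrX:101731535-101734269, Cxcl16 at chr11:70453983-70459984 and Cxcr6 at chr9:123806475-123811760. Cxcl11 is annotated as a polymorphic pseudogene on this reference, which is of another strain than the mice. Because Cxcl9 and Cxcl10 moved together across mice, the 250 bases upstream of each RefSeq start (GRCm38.p6, minus strand, 5′ to 3′) are shown. The Cxcl9 sequence is chr5:92328080-92328329 and that of Cxcl10 is chr5:92348890-92349139. Capitals mark matches to motifs searched on both strands.
Cxcl9: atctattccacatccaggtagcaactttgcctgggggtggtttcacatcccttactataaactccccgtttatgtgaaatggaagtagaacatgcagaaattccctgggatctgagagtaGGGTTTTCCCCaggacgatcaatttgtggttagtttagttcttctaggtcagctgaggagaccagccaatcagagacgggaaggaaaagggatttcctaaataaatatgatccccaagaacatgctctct
Cxcl10: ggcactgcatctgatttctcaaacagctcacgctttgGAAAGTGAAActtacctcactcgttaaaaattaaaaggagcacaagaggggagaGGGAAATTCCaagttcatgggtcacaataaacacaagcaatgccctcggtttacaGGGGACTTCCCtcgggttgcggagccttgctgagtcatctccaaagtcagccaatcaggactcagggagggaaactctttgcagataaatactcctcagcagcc

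The capitals in Cxcl9 are overlapping matches to a kappa B motif (GGG, any 5 bases, CC), the kind of site bound by NF-kB, from -130 to -120 relative to the start. In Cxcl10 the first capitals, from -213 to -204, match an interferon-stimulated response element core (GAAA, any 2 bases, GAAA). The other capitals in Cxcl10, from -159 to -150 and from -104 to -94, match the kappa B motif. The response element core was found in 2.98% of 32851 promoters of this length and the kappa B motif in 45.8%. The GAS motif TTCNNNGAA (7.02% of promoters) and the T-box element TCACACC (3.33%) had no match in the windows of Cxcl9, Cxcl10, Cxcr3 and Cxcr6, the 4 of 6 genes with a promoter in the table. Cxcr3 held a kappa B match from -139 to -130 and Cxcr6 held none of the 4 motifs.

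Levels are in TPM, a length-corrected share of all transcripts. The deposited linear table summed to between 542264 and 858506 TPM per library. In 2 AM155 libraries and 1 Dex_CDGHDM library the circular table summed to more than 200000 TPM, against at most 109468 TPM in the others, and results that turn on these libraries are also given without them. The share of the TPM scale outside both tables was 13.0% to 27.9% in Dex_CDGHDM, 13.8% to 27.7% in AM155, 15.2% to 32.8% in CDG_HDM and 9.57% to 11.1% in Saline. It differed between the groups, so results were also computed under other scalings. Whole lung RNA cannot show which cells made a transcript, and fewer cells of a type and less RNA per cell cannot be told apart. Epithelial markers such as Sftpc and Scgb1a1 (8 of 8 detected) summed to 45600 to 71600 TPM in Dex_CDGHDM, 34700 to 53600 in AM155, 41300 to 72400 in CDG_HDM and 87000 to 101000 in Saline. Scgb1a1 alone averaged 31800, 24200, 32400 and 70500 TPM in the same order, so it weighs heavily in this sum. Sftpc was not called by limma against Saline, with log2 changes of 0.04 in Dex_CDGHDM, -0.26 in AM155 and 0.07 in CDG_HDM.

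Cxcl9, the first of the interferon gamma-induced ligands of Cxcr3, ranged from 12.9 to 41.3 TPM in Dex_CDGHDM with a median of 18.2, from 12.4 to 35.2 in AM155 with a median of 23.3 and from 12.1 to 40.8 in CDG_HDM with a median of 19.6. In Saline it was 6.66, 5.19, 6.86, 6.64 and 7.08 TPM. Every library of the other groups lay above every Saline library. Among the CDG_HDM mice, 3 stood apart at 36.6, 36.6 and 40.8 TPM while the others reached at most 21.6 TPM. The coefficient of variation of Cxcl9 was 43.2% in CDG_HDM and 11.5% in Saline. The group means were 21.7 ± 10.6 TPM in Dex_CDGHDM, 22.6 ± 8.41 in AM155, 23.7 ± 10.3 in CDG_HDM and 6.49 ± 0.746 in Saline (SD, n = 6, 6, 10 and 5). The first 3 means lay within 1 SD of each other.

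Cxcl10, which shares its receptor with Cxcl9, ranged from 10.4 to 40.3 TPM in Dex_CDGHDM (median 13.6), from 6.95 to 31.2 in AM155 (median 18.2) and from 10.5 to 39.4 in CDG_HDM (median 15.2). Saline libraries held 3.57, 3.06, 3.56, 4.29 and 3.34 TPM. Here too no Saline library reached any library of the other groups. The CDG_HDM mice with the highest Cxcl9 also had the highest Cxcl10, at 29.9, 31.9 and 39.4 TPM, and the others reached at most 18.1 TPM. A single Dex_CDGHDM mouse had 40.3 TPM of Cxcl10 and 41.3 TPM of Cxcl9, and the other Dex_CDGHDM mice had at most 14.4 TPM of Cxcl10. Means were 17.4 ± 11.3 TPM in Dex_CDGHDM, 18.8 ± 9.05 in AM155, 19.6 ± 10.3 in CDG_HDM and 3.57 ± 0.457 in Saline, so that the first 3 again did not differ beyond their spread. Art3, a gene on the opposite strand that holds Cxcl10 within its bounds with 133 exonic bases in common, averaged 23.5, 25.8, 25.9 and 46.2 TPM in the same order of groups, opposite to Cxcl10.

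Cxcl16, the ligand of Cxcr6, was the most abundant of the 5 genes in every group by mean TPM. It ranged from 36.4 to 52.6 TPM in Dex_CDGHDM (median 44.3), from 36.3 to 48.1 in AM155 (median 39.7) and from 33.5 to 55.1 in CDG_HDM (median 44.1). Saline libraries had 25.1, 20.9, 23.9, 22.7 and 21.9 TPM, below all others. The means were 44.5 ± 6.9 TPM in Dex_CDGHDM, 41.4 ± 5.01 in AM155, 45.0 ± 7.33 in CDG_HDM and 22.9 ± 1.62 in Saline. Its spread among sensitized mice, a coefficient of variation of 16.3% in CDG_HDM, was smaller than that of Cxcl9. Over 552 bases Cxcl16 overlaps exons of Zmynd15 on the opposite strand. The libraries were stranded per the labels, but whether counting used the strand is not given in the sources used here. Zmynd15 averaged 39.6 ± 6.84 TPM in Dex_CDGHDM, 35.4 ± 5.43 in AM155, 39.5 ± 8.0 in CDG_HDM and 12.7 ± 1.92 in Saline, so it moved with Cxcl16, and its part in the Cxcl16 values was not tested.

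Cxcr3, the receptor of activated T cells and NK cells, ranged from 6.84 to 13.1 TPM in Dex_CDGHDM (median 10.4), from 9.11 to 17.7 in AM155 (median 13.6) and from 12.1 to 19.3 in CDG_HDM (median 16.4). Saline libraries held 2.87, 2.00, 2.68, 2.95 and 2.75 TPM. Saline lay below all other libraries, and 4 of 6 Dex_CDGHDM mice lay below the lowest CDG_HDM mouse. The means were 10.3 ± 2.43 TPM in Dex_CDGHDM, 13.5 ± 2.92 in AM155, 15.8 ± 2.37 in CDG_HDM and 2.65 ± 0.379 in Saline. The AM155 mean lay within 1 SD of the CDG_HDM mean, and AM155 libraries overlapped with those of both neighbours in this order.

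Cxcr6, the receptor of resident memory T cells, ranged from 14.8 to 33.7 TPM in Dex_CDGHDM (median 28.0), from 28.1 to 51.8 in AM155 (median 42.7) and from 28.9 to 67.8 in CDG_HDM (median 40.2). In Saline it was 7.79, 5.11, 8.11, 9.06 and 8.19 TPM. As with Cxcr3, no Saline library overlapped the others and 4 of 6 Dex_CDGHDM mice lay below the lowest CDG_HDM mouse. Its means were 27.4 ± 6.86 TPM in Dex_CDGHDM, 41.2 ± 8.42 in AM155, 41.9 ± 12.2 in CDG_HDM and 7.65 ± 1.49 in Saline, with AM155 and CDG_HDM inside each other's spread. Cxcr6 lies wholly within Fyco1 on the opposite strand, with 0 exonic bases in common, and Fyco1 averaged 32.8, 30.8, 32.4 and 42.6 TPM in the same order of groups.

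**Figure D1:**
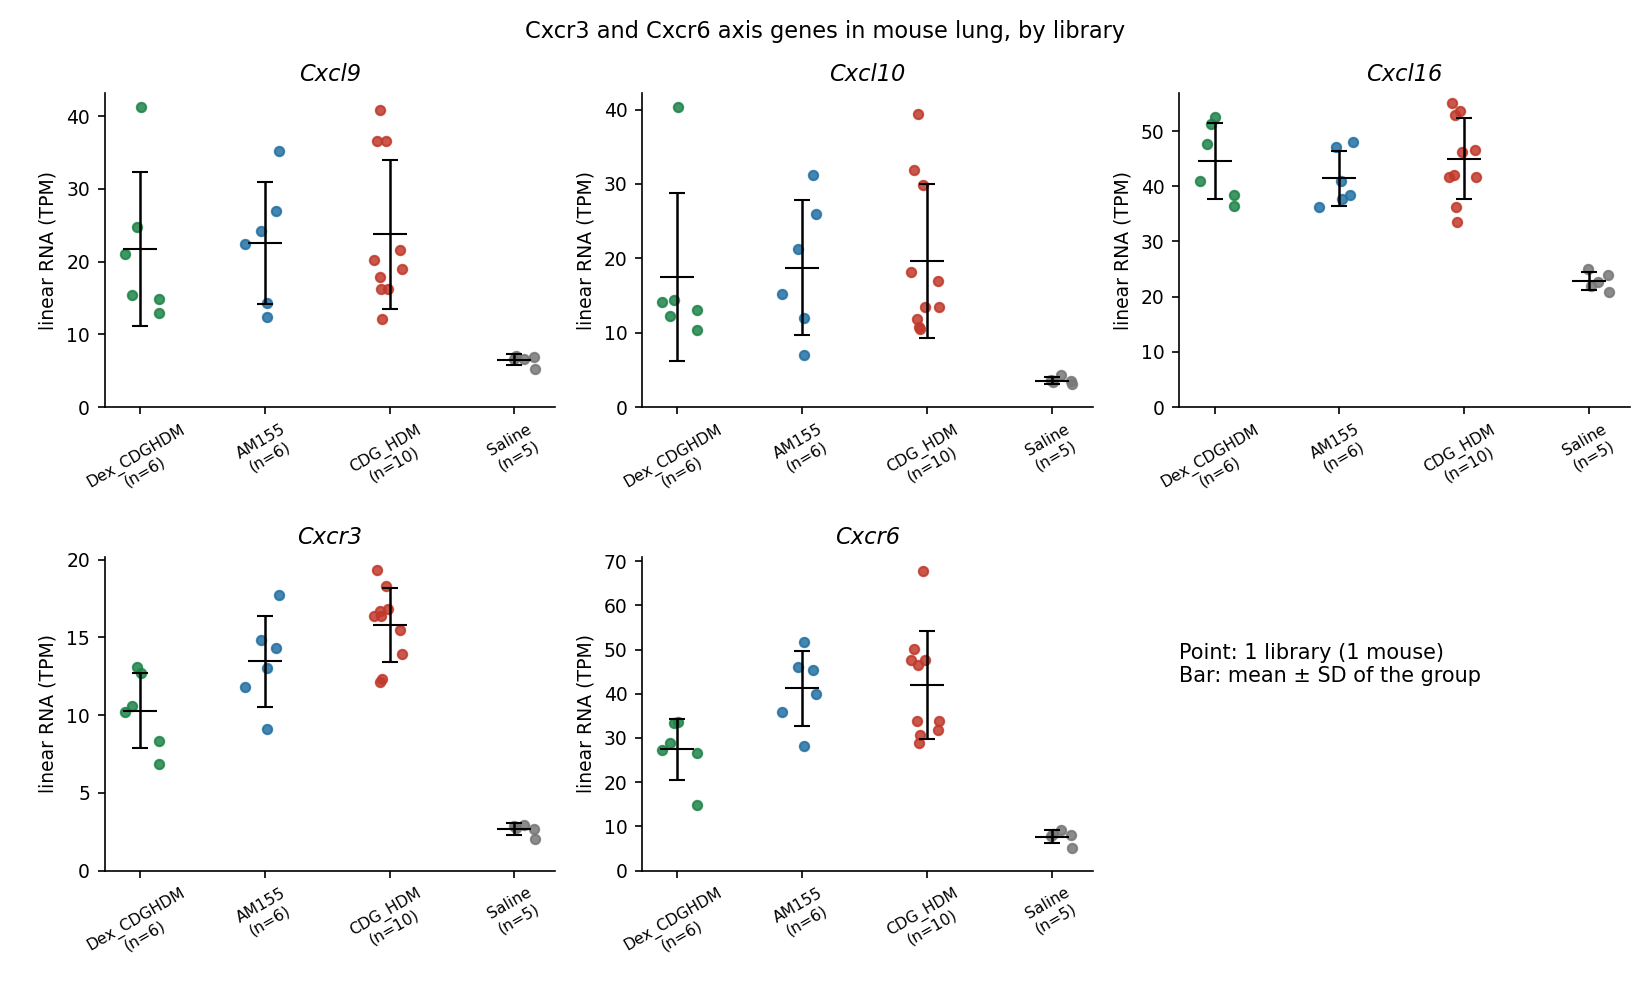
Linear RNA in TPM (y axis) of the 5 genes in each library of the 4 groups (x axis), with points for single mice and bars for the mean ± SD. All Saline points lie below all other points for each gene, and Cxcr3 in Dex_CDGHDM (6.84 to 13.1 TPM) reaches lower than in CDG_HDM (12.1 to 19.3 TPM).

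Sensitization was examined first. All 5 genes rose in CDG_HDM over Saline, the receptors by more than 4-fold and Cxcl16 by less than 2-fold. In limma's fit of log2(TPM + 1) over 17437 genes, 5 of 5 were called higher at an adjusted p under 0.05, where 9.35% of all genes were called higher and 22.8% lower. All 5 were also without overlap between the groups, against 5.06% of all genes in that direction. Over all genes the log2 change had a median of -0.10. With median-of-ratios scaling 3900 genes were called higher and 3744 lower, against 1631 and 3976 in TPM as deposited, and the 5 genes remained called in every setting tried.

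On the scale of TPM + 1, Cxcr6 changed most, with a log2 change of 2.28 ± 0.18 (SE; 95% interval 1.91 to 2.65; limma adjusted p = 8.36e-11), a 4.86-fold difference. Cxcr3 changed by 2.19 ± 0.132 (1.92 to 2.46; limma adjusted p = 4.62e-13), a 4.57-fold difference of TPM + 1. Over the other settings run Cxcr3 changed by 2.1 to 2.57 and Cxcr6 by 2.01 to 2.43. With a pseudocount of 0.1 Cxcr3 rose by more than Cxcr6, so their order depends on the setting. Among 23 chemokine receptors tested these were rank 1 and rank 2 by log2 change, and among all 17437 genes they were rank 23 and rank 29. The receptors thus headed their family in this comparison.

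Cxcl10 rose by 2.04 ± 0.304 on the log2 scale (1.41 to 2.66; limma adjusted p = 5.68e-06) and Cxcl9 by 1.63 ± 0.254 (1.11 to 2.15; limma adjusted p = 1.11e-05). These were 4.1-fold and 3.09-fold differences of TPM + 1. Cxcl16 rose by 0.93 ± 0.107 (0.71 to 1.15; limma adjusted p = 8.3e-08), a 1.9-fold difference of TPM + 1. By log2 change Cxcl10, Cxcl9 and Cxcl16 were rank 3, rank 7 and rank 12 of 36 chemokine ligands. Cxcl10 and Cxcl9 had the largest standard errors of the 5 genes and the widest spread among sensitized mice.

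**Figure D2:**
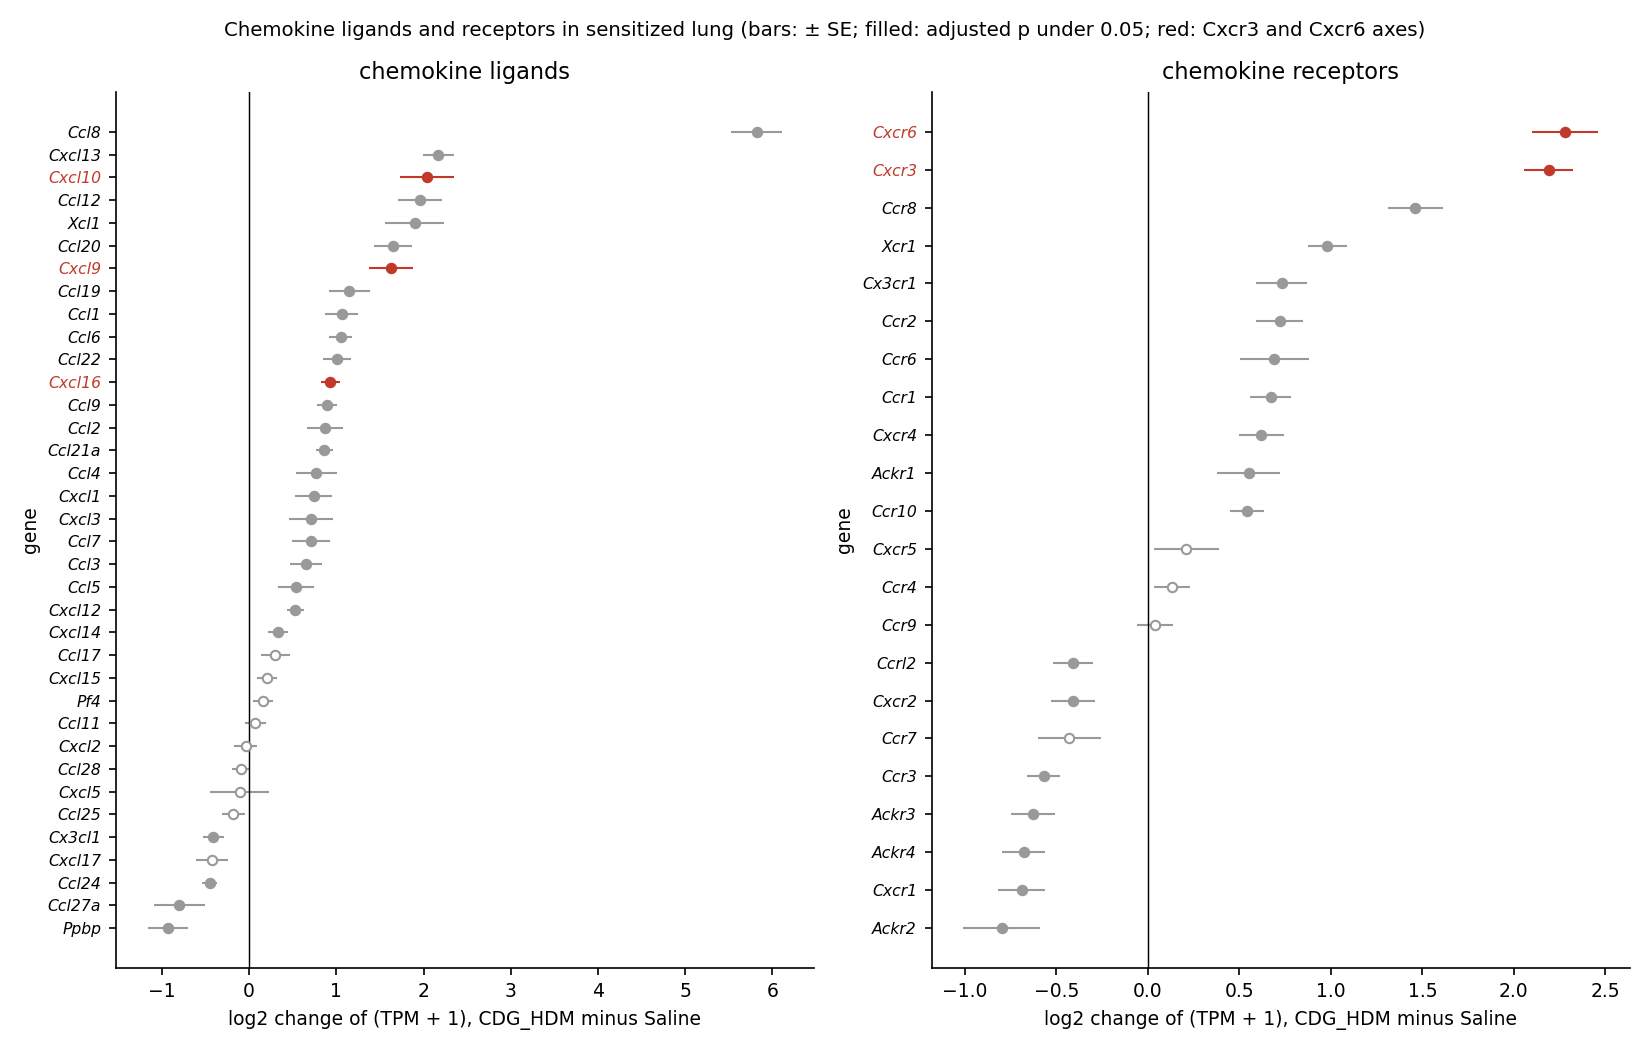
Log2 change of (TPM + 1), CDG_HDM minus Saline (x axis), of 36 chemokine ligands and 22 receptors (rows), with bars of ± SE and filled points at a limma adjusted p under 0.05. The Cxcr3 and Cxcr6 axis genes are in red, with Cxcr6 and Cxcr3 at the top of the receptors at 2.28 and 2.19.

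Of 33 other chemokine ligands, 20 rose and 4 fell, with a median log2 change of 0.65. Above Cxcl10 stood Ccl8, the mouse ligand of Ccr8, at 5.82 ± 0.295 (limma adjusted p = 6.06e-15) and Cxcl13, which attracts B cells, at 2.17 ± 0.177 (1.45e-10). Ccl12, a monocyte attractant, followed at 1.96 ± 0.249 and Xcl1, a ligand for cross-presenting dendritic cells, at 1.90 ± 0.338. Of 21 other chemokine receptors, 10 rose and 7 fell, with a median of 0.21. Ccr8, the receptor of Ccl8 in the mouse, rose by 1.46 ± 0.15. Xcr1, a receptor of cross-presenting dendritic cells, rose by 0.98 ± 0.106 and the scavenging receptor Ackr2 changed by -0.80 ± 0.209.

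Some genes of the interferon gamma pathway, which is known to induce Cxcl9 and Cxcl10, also rose. Of 19 genes for the induction and signalling of interferon gamma, 9 rose and 1 fell (median 0.31). Under the other scalings 13 rose and 0 or 1 fell. Ifng itself, the cytokine, averaged 2.82 ± 0.871 TPM in CDG_HDM and 0.518 ± 0.176 in Saline, a log2 change of 1.31 ± 0.147 (limma adjusted p = 5.43e-08). Il12rb1, a subunit of the IL-12 receptor, rose by 1.56 ± 0.145, and the transcription factors Irf8 and Irf1 by 1.06 ± 0.123 and 0.59 ± 0.128. Tbx21, the T-bet factor that drives Cxcr3 in T cells, rose by 0.36 ± 0.126 (limma adjusted p = 0.0286). The receptor subunits Ifngr1 and Ifngr2 were at 0.06 ± 0.1 and 0.15 ± 0.088 and were not called.

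All 16 interferon gamma-induced genes listed rose, with a median of 1.23. Ubd, a ubiquitin-like modifier, rose by 4.03 ± 0.324. The immunity-related GTPases Iigp1 and Igtp rose by 2.27 ± 0.262 and 1.96 ± 0.23, and Nlrc5, the activator of MHC class I genes, by 1.89 ± 0.166. Of 11 type I interferon-induced genes tested, 1 rose and 2 fell (median -0.14). Under the other scalings 2 rose and 1 or 2 fell, and the median was 0.02 with all libraries rescaled to 1 sum. Oas1a, an RNA sensor, rose by 0.68 ± 0.129, while Rsad2 and Ifit2, antiviral effectors, changed by -0.72 ± 0.146 and -0.35 ± 0.103.

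Of 8 genes that process or scavenge these ligands, 2 rose and 3 fell (median -0.03). Under median-of-ratios, quantile and common-sum scaling 4 rose and 3 fell, with medians of 0.06 to 0.13. Dpp4, a peptidase that trims Cxcl9 and Cxcl10, changed by -0.56 ± 0.119, and Ackr3, which scavenges Cxcl11, by -0.63 ± 0.12. Among the sheddases of Cxcl16, Adam17 rose by 0.40 ± 0.094 and Adam10 was at 0.09 ± 0.0846 and not called. Timp3, an inhibitor of Adam17, changed by -0.74 ± 0.151. Of 13 genes that signal downstream of chemokine receptors, 7 rose and 2 fell (median 0.46). They include the kinase subunit Pik3cg at 1.24 ± 0.132, the Rac activator Dock2 at 0.85 ± 0.14 and the G protein regulator Rgs1 at 0.85 ± 0.115.

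Markers of the cells that carry the receptors moved as well. Of 17 T cell markers 14 rose and 0 fell (median 1.05), and none was at 0. Their summed level was 385 to 656 TPM in CDG_HDM and 167 to 296 TPM in Saline. Cd3g, Thy1, Cd6 and Cd4 rose by 1.87 ± 0.171, 1.76 ± 0.149, 1.73 ± 0.18 and 1.66 ± 0.139, while Cd8a was at 0.21 ± 0.149 and not called. Of 17 effector and tissue-resident T cell genes 14 rose and 1 fell (median 0.64). These include Icos, a costimulatory receptor, at 1.88 ± 0.142, the checkpoint receptor Pdcd1 at 1.86 ± 0.164 and the resident-cell integrin Itgae at 1.10 ± 0.0983. Of 8 NK cell markers tested 2 rose and 5 fell (median -0.49). Xcl1 and Klrb1b rose by 1.90 ± 0.338 and 0.67 ± 0.176, while Ncr1 was at -0.61 ± 0.129 and the granzyme Gzma at -1.08 ± 0.176. Under the other scalings 2 or 3 rose and 4 fell. The NK marker sum was 68.0 to 108 TPM in CDG_HDM and 85.5 to 152 TPM in Saline.

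Markers of possible ligand sources changed in both directions. Of 15 macrophage and dendritic cell markers 12 rose and 1 fell (median 1.26), with C1qb, C1qa and the integrin Itgax at 2.67 ± 0.173, 2.53 ± 0.165 and 1.52 ± 0.14. The marker that fell was Cd209a, at -1.03 ± 0.146, and Zbtb46 and Clec9a, at -0.24 ± 0.114 and -0.04 ± 0.136, were not called. The sum of the 15 markers was 809 to 1680 TPM in CDG_HDM and 342 to 390 TPM in Saline. All 6 endothelial markers fell (median -0.96). Of 8 epithelial markers 1 rose and 3 fell (median -0.18), and 3 of 6 B and plasma cell markers rose. With a common sum 5 of these 6 rose, and 2 epithelial markers rose with a common sum or quantile normalization. The part of any of these cell types in the member changes was not tested.

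To set the receptors against T cell RNA, each was divided by Cd3e, a subunit of the T cell receptor complex. The TPM ratio of Cxcr3 to Cd3e had a median of 0.607 in Dex_CDGHDM, 0.656 in AM155, 0.667 in CDG_HDM and 0.256 in Saline. That of Cxcr6 to Cd3e was 1.74, 1.88, 1.79 and 0.698 in the same order. Both receptors therefore stood higher per Cd3e in CDG_HDM, and no library overlapped with Saline. The log2 ratio of Cxcr3 to Cd3e, taken on TPM + 1, was -0.50 ± 0.16 in CDG_HDM and -1.64 ± 0.18 in Saline (SD, n = 10 and 5; two-sided exact permutation p = 0.000333, adjusted over 24 tests 0.004). The log2 ratio of Cxcr6 to Cd3e was 0.82 ± 0.25 in CDG_HDM and -0.41 ± 0.18 in Saline (exact permutation p = 0.000333, adjusted 0.004). With the mean of Cd3d, Cd3e and Cd3g as the divisor the differences were 1.05 and 1.14 in place of 1.14 and 1.23. Cd3e itself rose by 1.05 ± 0.141, at the median of the T cell markers, while Cd3g rose by 1.87 and Cd3d by 0.53. The receptors rose by 2.19 and 2.28, so the size of their excess over T cell RNA depends on the gene chosen as divisor.

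The log2 ratio of Cxcr3 to Cxcr6 was -1.32 ± 0.29 in CDG_HDM and -1.23 ± 0.13 in Saline, a difference of -0.09 that did not pass (exact permutation p = 0.531) and that was 0.11 with a pseudocount of 0.1. Cxcl9 exceeded Cxcl10 by a median TPM ratio of 1.22 in CDG_HDM and 1.87 in Saline. The log2 ratio was 0.30 ± 0.17 in CDG_HDM and 0.71 ± 0.15 in Saline, with overlapping libraries (exact permutation p = 0.000999, adjusted 0.00799). Cxcl10 thus rose by more than Cxcl9.

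**Figure D3:**
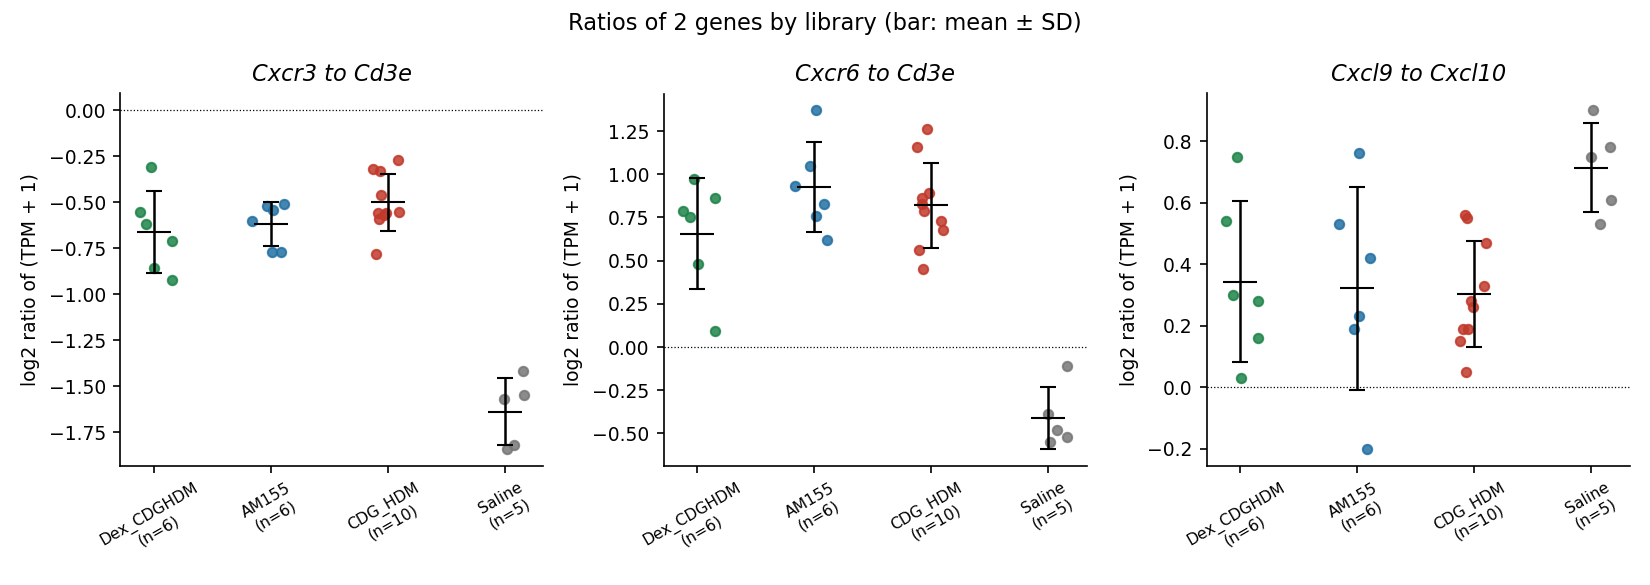
Log2 ratio of (TPM + 1) between 2 genes (y axis) in each library of the 4 groups (x axis), with points for mice and bars for the mean ± SD. Both receptor to Cd3e ratios are lowest in Saline without overlap, and the Cxcl9 to Cxcl10 ratio has its highest mean there, at 0.71 ± 0.15.

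Dexamethasone was then compared with sensitization alone. The ligands did not differ measurably, while both receptors and several T cell genes averaged lower in Dex_CDGHDM without passing the test over all genes. By limma 0 of 5 genes were called, where 0.00573% of all genes were called in either direction (1 gene, lower) and 3.97% had an unadjusted p under 0.05. Cxcr3 differed by -0.59 ± 0.124 (-0.84 to -0.33), 0.666 of its CDG_HDM level, with an unadjusted limma p of 5e-05 and an adjusted p of 0.0969. Cxcr6 differed by -0.59 ± 0.17 (-0.94 to -0.24), 0.665 of its CDG_HDM level, with a limma p of 0.00161 and an adjusted p of 0.47. Both fractions are of TPM + 1. All 6 Dex_CDGHDM mice lay below the CDG_HDM mean for both genes.

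Of 17437 genes, Cxcr6 and Cxcr3 had the log2 changes ranked 33 and 34 from the lowest. Taken alone, the exact permutation test over the 16 mice gave an unadjusted p of 0.000749 for Cxcr3 and 0.00824 for Cxcr6. Quantile normalization brought the limma adjusted p of Cxcr3 to 0.0456 at a log2 change of -0.57. Without Dex_CDGHDM 2, the mouse lowest in both receptors, the changes were -0.49 for Cxcr3 (limma adjusted p = 0.372) and -0.43 for Cxcr6 (0.997).

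For the ligands the intervals of the log2 difference were -0.62 to 0.36 for Cxcl9, -0.76 to 0.41 for Cxcl10 and -0.22 to 0.19 for Cxcl16, all with a limma adjusted p of 1.0. These intervals span the differences compatible with the values of these mice. Ifng averaged 1.51 ± 0.571 TPM in Dex_CDGHDM and 2.82 ± 0.871 in CDG_HDM, a log2 change of -0.60 ± 0.138 (limma adjusted p = 0.196). Tbx21 was at -0.43 ± 0.119 (0.402). The median of the interferon gamma-induced genes was -0.18, with 0 of 16 called.

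Of 17 T cell markers 0 were called in TPM as deposited and 1 or 2 under the other scalings. Their median log2 change was -0.42, against -0.01 over all genes, and their part in the receptor values was not tested. The marker sum was 277 to 459 TPM in Dex_CDGHDM and 385 to 656 TPM in CDG_HDM. Cd3g was at -0.67 ± 0.162 (limma adjusted p = 0.215) and Cd3e at -0.42 ± 0.133 (0.603). Set against Cd3e, Cxcr3 was -0.66 ± 0.22 in Dex_CDGHDM and -0.50 ± 0.16 in CDG_HDM on the log2 scale (exact permutation p = 0.103). Cxcr6 was 0.66 ± 0.32 in Dex_CDGHDM and 0.82 ± 0.25 in CDG_HDM (exact permutation p = 0.271). Per Cd3e the differences were -0.16 and -0.17, and neither passed. In the other settings run they were -0.19 to -0.08 and -0.21 to -0.08. Cd3g was lower by more than Cd3e and by more than either receptor, so these differences depend on the T cell gene chosen.

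AntimiR-155 was compared with sensitization in the same way. None of the 5 genes was called by limma, where 0.103% of all genes were called and 7.24% had an unadjusted p under 0.05. Cxcr6 was at 0.00 (-0.35 to 0.35; limma adjusted p = 0.999), Cxcl9 at -0.05 (-0.53 to 0.44), Cxcl10 at -0.06 (-0.65 to 0.52) and Cxcl16 at -0.11 (-0.31 to 0.10). Cxcr3 was at -0.23 (-0.48 to 0.03; limma unadjusted p = 0.0794, adjusted 0.684). The intervals again span the differences compatible with the values. Ifng was at -0.03 ± 0.138 and Cd3e at -0.10 ± 0.133. Of the listed genes, the antiviral gene Rsad2 at 0.88 ± 0.138 (limma adjusted p = 0.00231) and Gzma at 0.80 ± 0.166 (0.0378) were called.

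Between the treatments, 0 of 5 genes were called by limma in Dex_CDGHDM minus AM155, where 0.0803% of all genes were called and 7.37% had an unadjusted p under 0.05. Cxcr6 was at -0.59 (-0.98 to -0.20), with an unadjusted limma p of 0.00421 and an adjusted p of 0.349. Cxcr3 was at -0.36 (-0.64 to -0.08), with an unadjusted limma p of 0.0141 and an adjusted p of 0.509. The ligands were at -0.09 for Cxcl9, -0.11 for Cxcl10 and 0.10 for Cxcl16. This comparison shares its Dex_CDGHDM mice with the one against CDG_HDM.

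**Figure D4:**
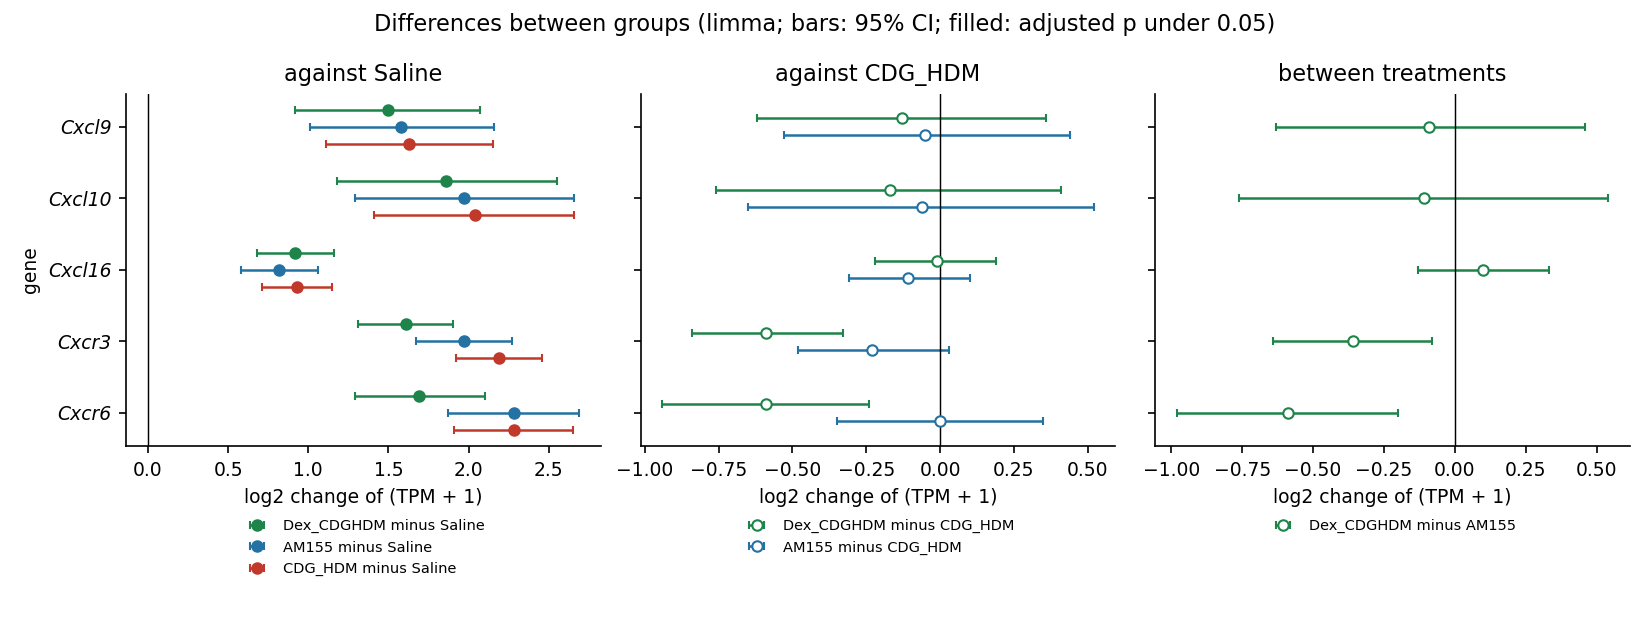
Log2 change of (TPM + 1) with its 95% interval (x axis) for the 5 genes (rows) in comparisons against Saline, against CDG_HDM and between treatments, filled at a limma adjusted p under 0.05. All points against Saline are filled and lie right of 0, and the intervals of Cxcr3 and Cxcr6 in Dex_CDGHDM minus CDG_HDM lie left of 0 with open points.

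Both treated groups remained above Saline for all 5 genes. In Dex_CDGHDM minus Saline 5 of 5 were called higher, against 7.59% of all genes, and none overlapped with Saline, as for 5.28% of all genes. The log2 changes were 1.50 for Cxcl9 (limma adjusted p = 0.000193), 1.86 for Cxcl10, 0.92 for Cxcl16, 1.61 for Cxcr3 (limma adjusted p = 2.74e-09) and 1.69 for Cxcr6. In AM155 minus Saline 5 of 5 were called higher, against 7.82% of all genes, again with no overlap, as for 4.31% of all genes. There the changes were 1.58 for Cxcl9, 1.97 for Cxcl10, 0.82 for Cxcl16, 1.97 for Cxcr3 and 2.28 for Cxcr6 (limma adjusted p = 1.14e-09). These comparisons share their Saline mice with the one on sensitization. The Cxcr3 to Cd3e ratio also stayed above Saline without overlap, by 0.98 in Dex_CDGHDM and 1.02 in AM155 (exact permutation p = 0.00216 each, adjusted 0.00866).

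The genes were also compared across the mice of 1 group. Among CDG_HDM mice Cxcl9 and Cxcl10 formed a low cluster of 7 mice and a high one of 3. Over all 10 mice they had Pearson r = 0.97 and Spearman rho = 0.95 (permutation, adjusted p = 0.0002 and 0.0013). Without the 2 mice farthest from the median of Cxcl9 r was 0.94. Over the 10 mice all 10 pairs passed by r and 3 by rho. Those with Cxcl9 or Cxcl10 span the gap between the clusters, so they were also taken within the 7. Cxcl9 and Cxcl10 had Pearson r = 0.81 there (exact permutation p = 0.0183; Spearman rho = 0.86, p = 0.0238), adjusted to 0.183 over 10 pairs. Cxcl9 and Cxcl16 had r = 0.76 (exact permutation p = 0.0454, adjusted 0.227). No pair passed among these 7 mice. The share of pairs of other genes that pass was not computed for any group, so counts of passing pairs cannot set the members apart.

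Over all 10 CDG_HDM mice, Cxcl16 and Cxcr6 had r = 0.77 and rho = 0.73 (permutation p = 0.0107 and 0.0209, adjusted to 0.0267 and 0.0509), and r = 0.74 without the 2 mice farthest from the median of Cxcl16. Cxcr3 and Cxcr6 had r = 0.70 and rho = 0.70 (permutation p = 0.0272 and 0.0308), and r = 0.69 without 2. With median-of-ratios scaling r was 0.85 and 0.79 and both pairs passed by r and by rho (permutation, adjusted p for rho = 0.00403 and 0.0272). Within the 7 mice of low Cxcl9 r was 0.53 and 0.47 and did not pass, in a split that was chosen after the values were seen and that leaves fewer mice over a narrower range.

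In Dex_CDGHDM 4 of 10 pairs passed, Cxcl9 with Cxcl10 at r = 0.92, Cxcr3 with Cxcl16 at 0.95, Cxcr3 with Cxcr6 at 0.91 and Cxcl16 with Cxcr6 at 0.82 (exact permutation, adjusted p = 0.00695 each, n = 6). Without the 2 farthest mice these were 0.89, 0.92, 0.91 and 0.92 over 4 mice. With median-of-ratios scaling none of the 10 pairs passed, and the adjusted p of each of these 4 was 0.059 (exact permutation). Under that scaling r without the 2 farthest mice was 0.92, 0.78, 0.45 and 0.25. In AM155 Cxcl9 and Cxcl10 had r = 0.92 (exact permutation p = 0.0111, adjusted 0.106), and r = 0.65 without 2 mice. No pair passed there in TPM as deposited. With median-of-ratios scaling Cxcl9 with Cxcl10 (r = 0.92) and Cxcl9 with Cxcr3 (r = 0.87) passed by r (exact permutation, adjusted p = 0.0486 each) and not by rho (adjusted 0.194 and 0.167).

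**Figure D5:**
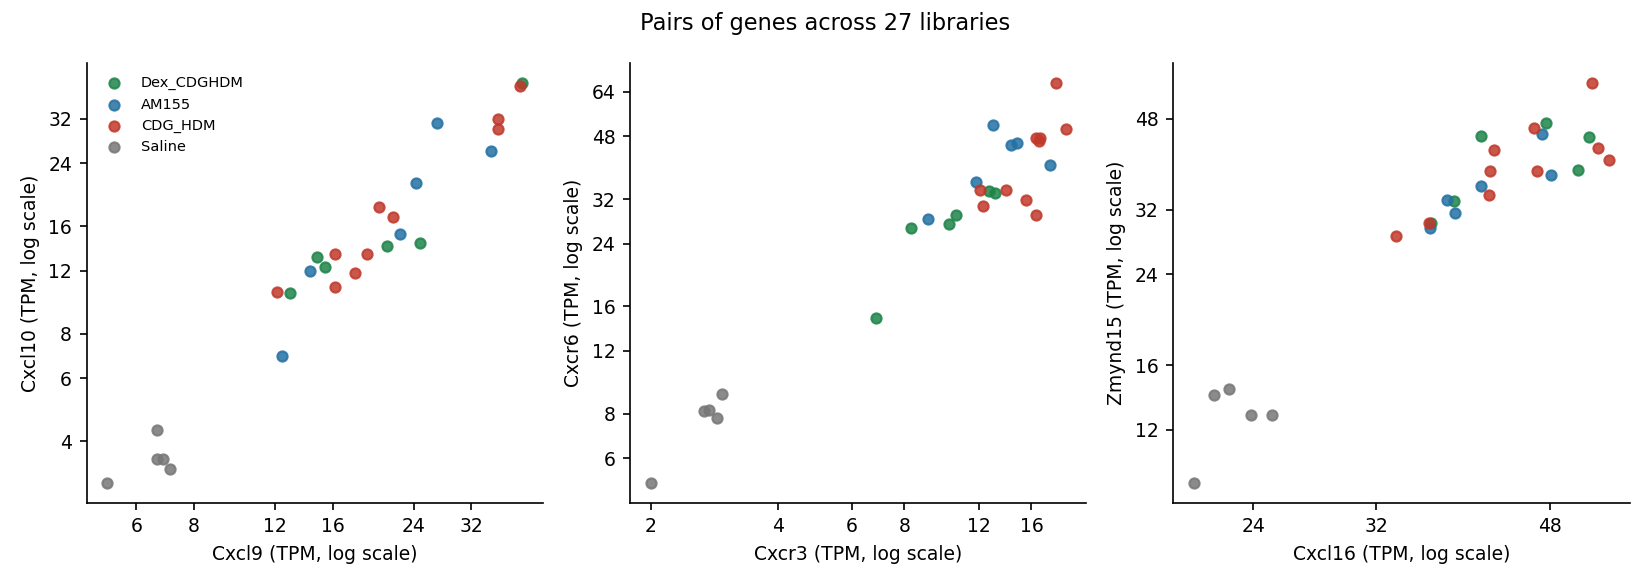
TPM of 2 genes in each of 27 libraries on log axes, coloured by group, for Cxcl9 and Cxcl10, Cxcr3 and Cxcr6, and Cxcl16 and its opposite-strand neighbour Zmynd15. Saline libraries lie apart at the lower left of each panel, and the 4 highest Cxcl9 values in the first are those of 1 Dex_CDGHDM mouse and 3 CDG_HDM mice, at 36.6 to 41.3 TPM.

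The genes most like each member were found by the Pearson r of deviations from the group mean over all 27 libraries, given as a description since the libraries share their scale. For Cxcl9 they were Gbp2 (0.92), Fam26f (0.90) and Gbp5 (0.90), and for Cxcl10 Ifi47 (0.93), Irgm1 (0.92) and Igtp (0.92). Gbp2, Gbp5, Ifi47, Irgm1 and Igtp belong to the interferon-inducible GTPase families. Cxcr3 was most like the T cell kinase gene Zap70 (0.85), the nonclassical MHC gene H2-T23 (0.85) and the lymphocyte receptor gene Cd96 (0.84). Cxcl16 was most like Rnf19b (0.94), Efhd2 (0.92) and the complement gene C1qa (0.90), and Cxcr6 was most like Olfr60 (0.94), the T cell adaptor gene Sit1 (0.91) and Podnl1 (0.91).

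By the same measure the ligands of Cxcr3 followed Ifng, at 0.76 for Cxcl10 and 0.73 for Cxcl9. This was not particular to Ifng, since they were at 0.79 and 0.78 with Cd3e and at 0.80 each with Irf1. Cxcr6 followed Ifng at 0.76 and Cd4 at 0.75, and its value with Cd8a was 0.28. For Cxcr3 the values were 0.77 with Cd4, 0.58 with Cd8a and 0.80 with Cd3e. Opposite-strand neighbours gave 0.74 for Cxcl16 with Zmynd15, 0.07 for Cxcr6 with Fyco1 and -0.18 for Cxcl10 with Art3.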

How the data were processed

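Whole lung RNA of 27 mice was measured by ribosome-depleted, stranded, paired-end sequencing, per the labels' protocols. The authors deposited TPM values per gene symbol for linear and for circular RNA. CASAVA 1.9 and the mm10 build (GRCm38) are named per the submitters' processing notes, while the sources used here name no aligner, quantifier, annotation or filter. TPM holds no read counts, so depth is unknown and no counting interval is given.

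The 17437 genes that reached 1 TPM in 5 or more libraries were tested as log2(TPM + 1), which understates changes of low genes. All 27 libraries entered 1 model in limma 3.58.1 (R 4.3.3, eBayes with trend), with 6 two-sided contrasts and Benjamini-Hochberg adjustment at 0.05. The model was tested on simulated data. Ratios and pairs used permutation tests computed with numpy 2.4.6, and Spearman rho came from scipy 1.17.1. These tests were adjusted over 24 tests and over 10 pairs per group, not the 15 planned, since Cxcl11 is not analysed. Positions are from GENCODE and promoters from RefSeq.

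The members, gene lists and tests were chosen with earlier results of these data known. Named genes are the members, the 3 genes most like each, genes overlapping a member, up to 4 called genes of largest change per list, and 12 genes fixed by name such as Ifng and Cd3e; Ifngr1 and Ifngr2 were added after their values were seen. Results for 2 of the named genes are not reported here, and 1 of 23 chemokine receptors is not plotted. Alternatives covered pseudocount, filter, scaling, weights, the samples fitted, a replicate block, each library left out and, chosen after seeing the data, the libraries high in circular RNA and the CDG_HDM mice high in Cxcl9. Same-numbered mice are not stated to share a litter or batch.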

Additional observations from a re-analysis of the deposited data

Results flagged for a closer look

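Of 20 gene and group combinations tested on the log2 scale, 5 held 1 library farther from the rest than Dixon's 95% critical value allows, and chance flags about 1 in 20 groups. The same Saline mouse, Saline 4, was the lowest of its group at 5.19 TPM for Cxcl9, 2.00 TPM for Cxcr3 and 5.11 TPM for Cxcr6. Dex_CDGHDM 1 was the highest of its group for Cxcl10, at 40.3 TPM. Dex_CDGHDM 2 was the lowest of its group for Cxcr6, at 14.8 TPM. Leaving out any 1 of these 3 mice left all 5 genes called above Saline.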

How the results depend on the processing

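All 5 genes stayed called above Saline in CDG_HDM, AM155 and Dex_CDGHDM in every setting run, including each library left out and the libraries high in circular RNA left out. In Dex_CDGHDM minus CDG_HDM 0 of 5 were called, except 1 with quantile normalization (Cxcr3, -0.57) and 2 by the unadjusted exact permutation test (Cxcr3 and Cxcr6, -0.59 each). That test called 1 gene in Dex_CDGHDM minus AM155. Leaving out 1 library moved Cxcr3 in Dex_CDGHDM minus CDG_HDM between -0.66 and -0.49, with a limma adjusted p of 0.0742 to 0.454. The libraries high in circular RNA left out gave -0.54 (0.32).

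Uncalled values near 0 changed sign, and the cause was not tested. Under median-of-ratios, quantile, common-sum scaling, array weights, and without the libraries high in circular RNA, Cxcl16 in Dex_CDGHDM minus CDG_HDM was 0.00, 0.02, 0.03, 0.05 and 0.03. In AM155 minus CDG_HDM, Cxcl9 was 0.04, 0.05, 0.07, 0.08 and 0.07, Cxcl10 was 0.02, 0.02, 0.05, 0.07 and 0.09, and Cxcr6 was 0.08, 0.10, 0.12 and 0.08 under the first 4. Cxcl16 was 0.01 there with a common sum. Each library left out gave -0.06 to 0.04 for Cxcl16 in Dex_CDGHDM minus CDG_HDM, and -0.19 to 0.10, -0.23 to 0.17 and -0.07 to 0.10 for Cxcl9, Cxcl10 and Cxcr6 in AM155 minus CDG_HDM. In Dex_CDGHDM minus AM155 it gave -0.29 to 0.05 for Cxcl9 and -0.37 to 0.06 for Cxcl10.

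Among ratios, Cxcr3 to Cd3e in Dex_CDGHDM minus AM155 was 0.03 with the mean of the Cd3 genes and -0.11 to 0.01 with 1 library left out. Cxcr3 to Cxcr6 with a pseudocount of 0.1 was 0.11 in CDG_HDM minus Saline, -0.02 in Dex_CDGHDM minus CDG_HDM (-0.06 to 0.06 with 1 library left out) and 0.09 in Dex_CDGHDM minus Saline. Without the libraries high in circular RNA, Cxcr6 to Cd3e and Cxcl9 to Cxcl10 in AM155 minus CDG_HDM were both -0.01. With 1 library left out Cxcl9 to Cxcl10 was -0.07 to 0.12 there, -0.04 to 0.10 in Dex_CDGHDM minus CDG_HDM and -0.08 to 0.11 in Dex_CDGHDM minus AM155. Among AM155 pairs without the 2 farthest mice, r was -0.36 for Cxcl10 with Cxcr6 and -0.51 for Cxcl16 with Cxcr6.

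Same-numbered mice did not deviate together, with r of -0.24 to 0.27 and a median of 0.03 over 20 pairs, and the main model did not pair them. A low r cannot exclude that they share a litter or batch. With the number as a replicate block the member calls were as reported and Cxcr3 in Dex_CDGHDM minus CDG_HDM was -0.58 (limma adjusted p = 0.723), while Cxcr6 there was -0.38 (1.0), against -0.59 without the block. In Dex_CDGHDM minus AM155 it gave -0.45 for Cxcl9 and -0.62 for Cxcl10, against -0.09 and -0.11. The block gave 0.00 for Cxcl16 in Dex_CDGHDM minus CDG_HDM, and 0.24, 0.48 and 0.38 for Cxcl9, Cxcl10 and Cxcr6 in AM155 minus CDG_HDM. Over all genes it called 3315 in CDG_HDM minus Saline, 2815 in Dex_CDGHDM minus Saline and 10 in AM155 minus CDG_HDM, against 5607, 4376 and 18. In Dex_CDGHDM minus CDG_HDM the scalings called 35 to 64 genes against 1, in AM155 minus CDG_HDM 33 to 38 against 18 and in Dex_CDGHDM minus AM155 62 to 112 against 14. Array weights called 9822 genes in CDG_HDM minus Saline and 9084 in Dex_CDGHDM minus Saline. Median-of-ratios scaling moved the median of all genes in AM155 minus Saline to 0.00, against -0.17, and the common sum moved that in CDG_HDM minus Saline to 0.04, against -0.10.

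Depth is unknown, so the spread between mice sets the precision, and TPM as a share moves with what lies outside the table.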
